A study of Mus musculus with 8 samples.

Results

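The major urinary protein (Mup) genes described here are Mup1, Mup2, Mup3, Mup7, Mup20 and Mup21, which were picked by gene symbol and make up 6 of the 24532 gene IDs in the annotation of the deposited files. The annotation holds 22 genes whose symbol is Mup and a number, and the other 16 are given further on for comparison. The 6 genes were chosen by their values in the liver of MKRN1-null against WT mice, so these liver values are a description and carry no test. Poly(A) RNA from the liver and the subcutaneous fat of male C57BL/6 mice was sequenced in 8 libraries. There were 4 groups, WT liver, MKRN1-null liver, WT fat and MKRN1-null fat, with 2 libraries each. MKRN1 is an E3 ubiquitin ligase, and the MKRN1-null mice had been backcrossed to C57BL/6 and bred with their WT littermates from heterozygous parents. All mice, WT included, had been put on a high-fat diet (HFD) at 6 weeks of age for 19 weeks, and the labels give an age of 24 weeks, whereas the methods of the paper state a shorter HFD. No group on a normal diet was compared. The labels do not tie a library to an animal, and p-values measure only the spread between libraries.

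Major urinary proteins are small lipocalins with a barrel-shaped pocket that binds volatile pheromones. The liver secretes them into the blood, and they pass into the urine, where they release scents slowly and mark the identity of the animal. Male mice make far more of them than females, and the pulses of growth hormone that are typical of males, together with androgens, thyroid hormone and glucocorticoids, keep their transcription high. The genes lie in 1 tandem array that grew by repeated duplication, which has left most copies almost identical.

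The deposited values of a library came from 5.72 to 9.24 gigabases of reads over the annotated transcripts, and from 6.05 to 7.46 gigabases in liver. Mkrn1 was at 9.42 and 10.1 FPKM (fragments scaled to the length of a transcript and the depth of a library) in WT livers and at 2.86 and 2.21 in MKRN1-null livers, and in fat at 16.8 and 19.3 against 4.58 and 2.90. Ddx3y, a gene of the Y chromosome, was between 11.1 and 11.7 FPKM in every liver library, and Xist did not exceed 0.00731 FPKM in any library. Alb, the albumin gene, was at 33787 to 42772 FPKM in liver. MKRN1-null fat replicate 2 stood apart, since its 10 skeletal muscle marker genes summed to 93841 FPKM against 79.4 to 318 in the other fat libraries.

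All 6 members lie on the minus strand of chromosome 4 in mm10 (GRCm38), in a cluster of 22 named Mup genes at chr4:59956806-62150841. Mup7 lies at chr4:60066469-60070475, Mup1 at chr4:60498013-60501960, Mup20 at chr4:62050235-62054117, Mup3 at chr4:62083476-62087312 and Mup21 at chr4:62147832-62150841. The most abundant Mup2 transcript lies at chr4:60135913-60139856, and the annotation places Mup2 with 9 transcripts at several sites as far as chr4:61439702. Mup21 has 6 exons and the most abundant transcript of each other member has 7.

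How far the members can be told apart by sequence bears on every value below, so an aligned stretch of 120 coding bases is shown for each, taken from the GENCODE vM21 transcripts. It lies in the exons that encode the start of the mature protein and begins at coding base 52 in Mup1, Mup2 and Mup7, at 55 in Mup20 and Mup21, and at 64 in Mup3. Capitals mark bases that differ from Mup7.
Mup7: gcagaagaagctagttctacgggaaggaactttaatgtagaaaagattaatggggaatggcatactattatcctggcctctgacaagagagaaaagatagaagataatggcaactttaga
Mup1: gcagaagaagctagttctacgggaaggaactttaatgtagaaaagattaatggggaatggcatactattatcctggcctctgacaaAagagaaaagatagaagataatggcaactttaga
Mup2: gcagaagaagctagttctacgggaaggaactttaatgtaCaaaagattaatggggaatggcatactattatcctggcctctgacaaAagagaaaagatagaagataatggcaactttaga
Mup20: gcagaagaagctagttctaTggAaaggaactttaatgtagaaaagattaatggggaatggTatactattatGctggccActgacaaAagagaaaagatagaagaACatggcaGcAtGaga
Mup3: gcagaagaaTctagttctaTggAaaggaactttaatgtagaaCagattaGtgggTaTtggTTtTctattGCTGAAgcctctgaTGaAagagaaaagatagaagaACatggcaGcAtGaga
Mup21: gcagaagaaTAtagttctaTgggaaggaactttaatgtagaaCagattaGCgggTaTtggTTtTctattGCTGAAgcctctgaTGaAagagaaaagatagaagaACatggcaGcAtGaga

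In this stretch Mup1 differed from Mup7 at 1 base and Mup2 at 2 bases, whereas Mup20 differed at 11, Mup3 at 24 and Mup21 at 25. Over the whole coding sequence Mup1 and Mup2 were 99.4% identical, Mup1 and Mup7 98.9%, and Mup2 and Mup7 98.7%. Mup20 was 90.6% identical to Mup1, and Mup3 and Mup21 were 94.7% identical to each other and 82.3% and 83.6% identical to Mup7. Of all windows of 100 bases along the transcript, 96.9% in Mup3, 95.5% in Mup21 and 61.2% in Mup20 occurred in no other gene of that annotation. The other windows of Mup20 occurred also in a Mup pseudogene, with which it shared 322. Only 12.8% of such windows in Mup1, 12.9% in Mup7 and 2.66% in Mup2 were their own, and a window of these 3 genes could occur in as many as 16 genes. The sources used here do not say how reads that fit several copies had been shared out. The values of Mup1, Mup2 and Mup7 one by one are therefore uncertain, and those of Mup3, Mup20 and Mup21 rest largely on sequence of their own.

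In liver, 5 of the 6 members had both MKRN1-null libraries above both WT libraries, and the sixth, Mup20, did not. Mup7 showed the widest gap and Mup20, the most abundant member in WT livers, showed none. Of all 10820 genes tested in liver, 11.8% had both MKRN1-null libraries above both WT libraries and 2.51% were called higher at an adjusted p under 0.05 from limma. Because the members were picked on this contrast, nothing is read from their count.

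Mup7 was at 23.0 and 305 FPKM in the WT livers and at 7449 and 9581 FPKM in the MKRN1-null livers. The lower MKRN1-null value was 24.4 times the higher WT value, and the group means differed 52.0-fold. Among all annotated genes Mup7 ranked 2496 and 235 by FPKM in the WT livers and 10 and 5 in the MKRN1-null livers.

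Mup1, whose product has been linked to glucose and lipid handling in mice, was at 32.5 and 262 FPKM in WT livers and at 2539.8 and 3270.2 FPKM in MKRN1-null livers. The groups did not overlap, the lower MKRN1-null value was 9.71 times the higher WT value, and the means differed 19.8-fold. Mup2 was at 77.0 and 285 FPKM in WT and at 756 and 989 FPKM in MKRN1-null livers, a 4.83-fold difference of means without overlap. Summed, Mup1, Mup2 and Mup7 gave 132 and 851 FPKM in WT livers and 10745 and 13841 FPKM in MKRN1-null livers. This sum does not depend on how reads were shared among these 3 genes, although it does depend on how they were shared with the other near-identical copies.

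Mup3 was at 2157 and 4206 FPKM in WT livers and at 7773 and 8449.8 FPKM in MKRN1-null livers. Its groups did not overlap, and the means, 3182 ± 1449 (SD, n = 2) and 8111 ± 479 (SD, n = 2), differed 2.55-fold. Mup21 was at 133 and 308 FPKM in WT and at 536 and 565 FPKM in MKRN1-null livers, a 2.50-fold difference of means without overlap. For both genes the lower MKRN1-null library was less than 2 times the higher WT library, by ratios of 1.85 and 1.74.

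Mup20 encodes darcin, the pheromone of male urine to which females are drawn and which provokes aggression between males. It was at 4436 and 12869 FPKM in WT livers and at 8378 and 7666 FPKM in MKRN1-null livers. Both MKRN1-null values lay between the WT values, and the means were 8652 ± 5963 (SD, n = 2) and 8022 ± 503 (SD, n = 2). On the scale of log2(FPKM + 1) the MKRN1-null minus WT difference of Mup20 was 0.08, and it was −0.68 without WT replicate 1 and −0.33 after quantile normalization, so that no direction can be given.

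**Figure D1:**
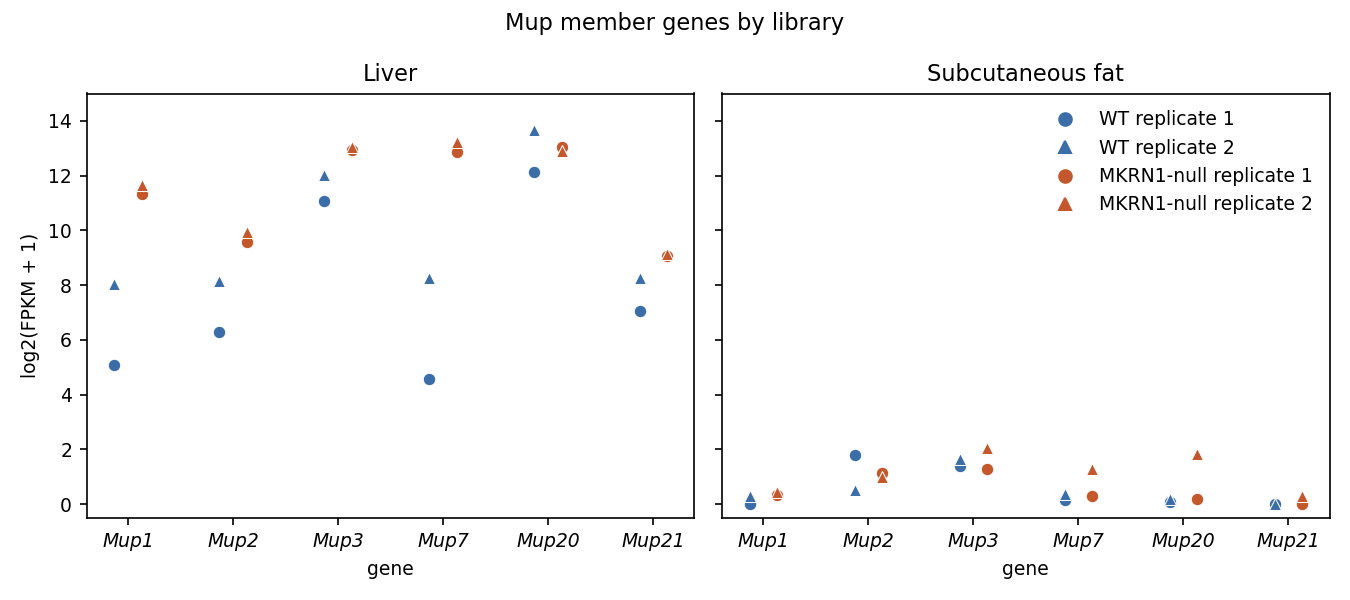
Values of the 6 members as log2(FPKM + 1) in liver (left) and subcutaneous fat (right), with WT libraries in blue, MKRN1-null libraries in orange, replicate 1 as circles and replicate 2 as triangles. In liver the orange points lie above the blue points for every member but Mup20, whose MKRN1-null values of 8378 and 7666 FPKM lie between the WT values of 4436 and 12869, and in fat no member exceeds 3.12 FPKM.

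The sum of the 6 members was 6859 and 18234 FPKM in the WT livers and 27432 and 30522 FPKM in the MKRN1-null livers. The means were 12546 ± 8043 (SD, n = 2) and 28977 ± 2185 (SD, n = 2), a 2.31-fold difference, and the groups did not overlap. On the log2 scale the difference was 1.37. It was 0.67 without WT replicate 1 and 2.08 without WT replicate 2, so that 1 WT library moved the fold by more than 1.5 times either way. Without Mup20 the log2 difference of the sum was 2.53. The sum of Mup3, Mup20 and Mup21, the genes with mostly their own sequence, was 6726 and 17383 FPKM in WT and 16687 and 16681 FPKM in MKRN1-null livers, and on this sum the groups overlapped.

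In the deposited values the make-up of the sum differed as well as its size. The shares of Mup1, Mup2 and Mup7 depend on how reads were shared among near-identical copies, which is not known. Mup20 held 64.7% and 70.6% of the summed FPKM in the WT livers and 30.5% and 25.1% in the MKRN1-null livers. Mup7 held 0.335% and 1.67% in WT livers against 27.2% and 31.4% in MKRN1-null livers. Mup1 went from 0.474% and 1.43% to 9.26% and 10.7%. The share of Mup3 was between 23.1% and 31.4% in all 4 libraries and overlapped between the genotypes, and that of Mup21 was between 1.69% and 1.96%.

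**Figure D2:**
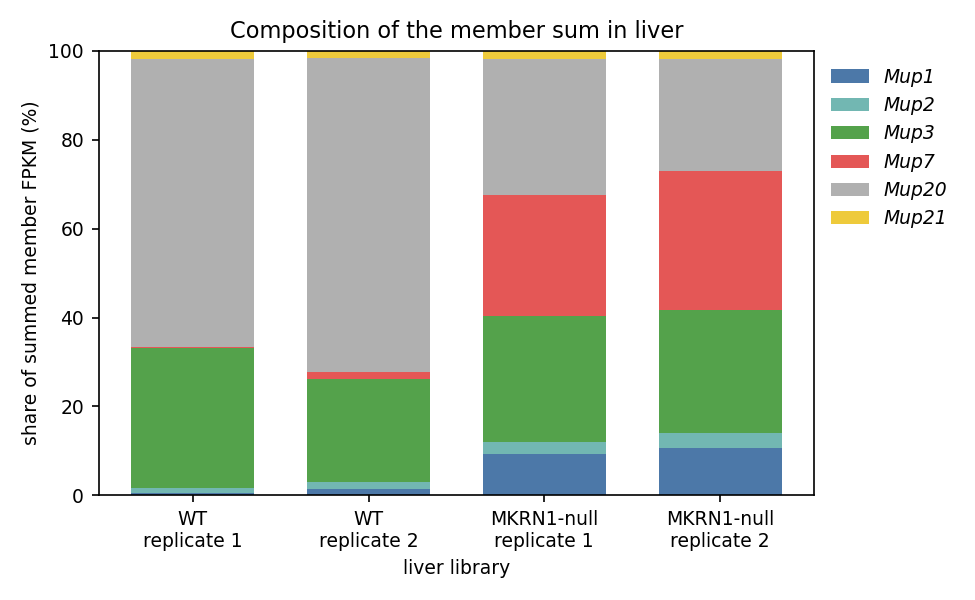
Share of each member in the summed FPKM of the 6 members (vertical axis, percent) in the 4 liver libraries (horizontal axis). Mup20 (grey) takes 64.7% and 70.6% in the WT libraries and 30.5% and 25.1% in the MKRN1-null libraries, where Mup7 (red) takes 27.2% and 31.4%. The share of Mup7 depends on how reads were shared among near-identical copies.

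The WT livers differed from each other in the same genes. Every member was lower in WT replicate 1 than in WT replicate 2, by 13.3-fold for Mup7, 8.05-fold for Mup1, 3.70-fold for Mup2, 2.90-fold for Mup20, 2.31-fold for Mup21 and 1.95-fold for Mup3. For 5 of the 6 members the difference between the WT replicates was at least 1 on the log2 scale, which was so for 0.702% of the 10820 genes tested. The MKRN1-null replicates were close, with ratios of replicate 2 to replicate 1 between 0.92 for Mup20 and 1.31 for Mup2. Alb was not lower in WT replicate 1, at 39904 FPKM against 33787 in WT replicate 2.

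The exons of each member's most abundant transcript showed how even the difference was along the gene. The files number exons from the lowest coordinate, which for these minus-strand genes is the 3′ end. The MKRN1-null to WT ratio of exon means ran from 2.43 to 2.73 over the 7 exons of Mup3, from 2.11 to 2.66 over the 6 exons of Mup21 and from 0.895 to 0.982 over the 7 exons of Mup20. It was uneven in the near-identical genes, with 18.7 to 99.5 in Mup7, 9.01 to 44.8 in Mup1 and 2.78 to 12.5 in Mup2. In Mup21 the ratio was even but the level was not. Its exons ran from 39.0 to 436 in FPKM units in WT replicate 1, against 1713 to 3319 in Mup3. The part of shared reads in either kind of unevenness was not tested. Mean read coverage of the most abundant transcript in liver was lowest in Mup7 of WT replicate 1, at 139 reads per base.

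**Figure D3:**
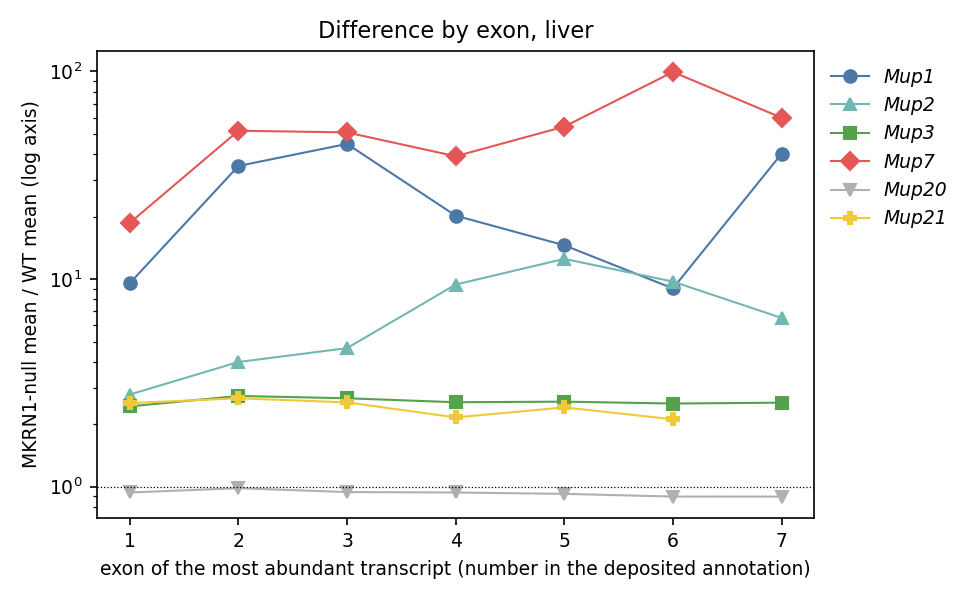
Ratio of the MKRN1-null mean to the WT mean in liver (vertical log axis) for each exon of the most abundant transcript (horizontal axis, numbered as in the deposited annotation from the 3′ end), 1 line per gene. Mup3, Mup21 and Mup20 run flat, at 2.43 to 2.73, 2.11 to 2.66 and 0.895 to 0.982, while Mup7, Mup1 and Mup2 vary from exon to exon.

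The other 16 Mup genes were mostly of the near-identical kind. One of them, Mup4, stayed under 1 FPKM in every library. Among the 11 with a mean liver FPKM of at least 10, all were higher in WT replicate 2 than in WT replicate 1, and 10 had both MKRN1-null libraries above both WT libraries, against 11.8% of all genes tested. The exception was Mup18, at 2.31 and 20.0 FPKM in WT and 3.08 and 68.3 FPKM in MKRN1-null livers. The group means of these 11 differed from 1.93-fold in Mup10 to 23.1-fold in Mup22. Because these copies share much of their sequence with members picked on this contrast, nothing is read from their count.

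Mup17 was at 466 and 1720.1 FPKM in WT and at 4588 and 5014 FPKM in MKRN1-null livers. Mup13 was at 358 and 1412 against 3457 and 4133 FPKM, and Mup14 at 120 and 679 against 3257 and 4238 FPKM. Mup10, the most abundant of these genes in WT livers, was at 723 and 2298 against 2846 and 2996 FPKM. These genes thus lay above WT in both MKRN1-null libraries, by margins that are uncertain for each single copy.

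Mup12 was at 28.2 and 223 against 2198 and 2761 FPKM, and Mup15 at 75.1 and 366 against 2329.8 and 2930.1 FPKM. Mup9 was at 105 and 513 against 1084 and 1329 FPKM, and Mup19 at 111 and 501 against 1083 and 1614 FPKM. Mup8 was at 12.6 and 121 against 563 and 693 FPKM, and Mup22 at 11.2 and 24.9 against 416 and 418 FPKM. The lower ones, Mup5, Mup6, Mup11 and Mup16, did not exceed 9.43 FPKM in any library. Mup11 overlapped between the genotypes, at 1.21 and 6.15 against 4.18 and 4.76 FPKM. Mup16 hardly differed, at 8.85 and 9.34 against 9.37 and 9.43 FPKM. Mup5 and Mup6 had both MKRN1-null libraries above both WT libraries.

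**Figure D4:**
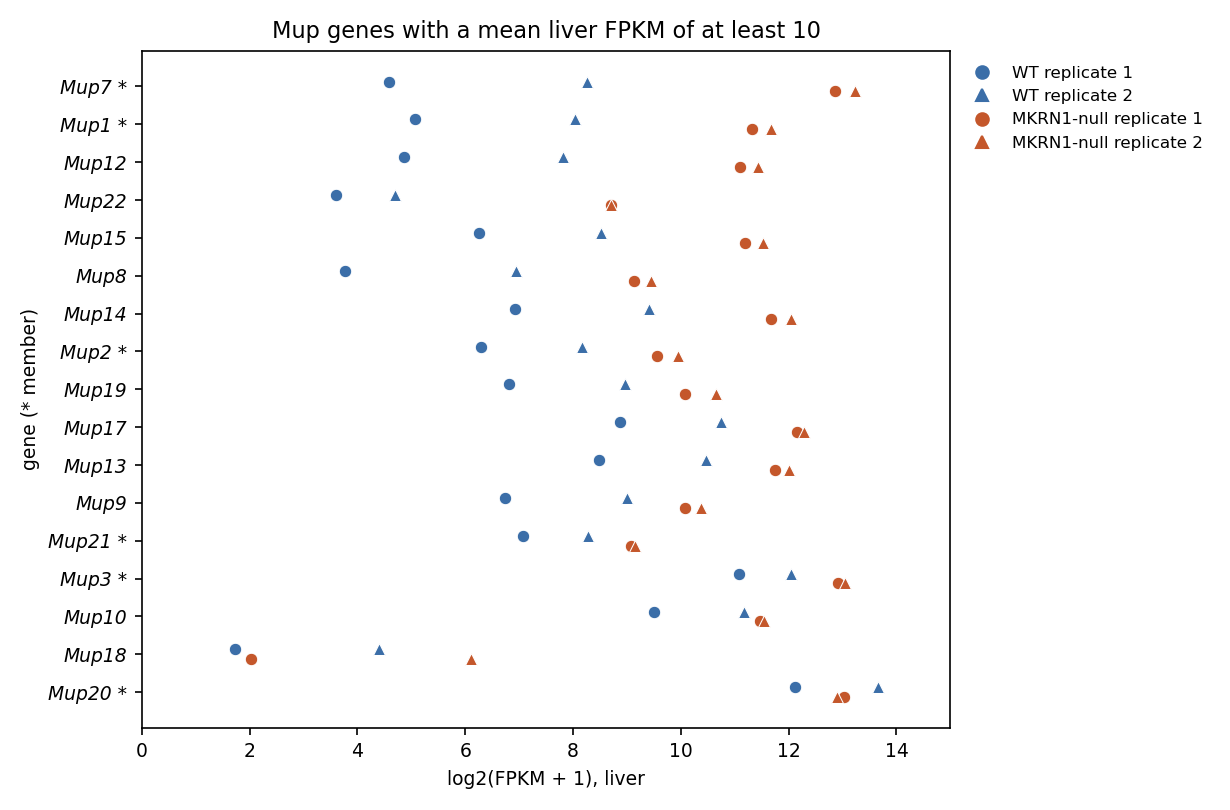
Liver values as log2(FPKM + 1) (horizontal axis) of the 17 Mup genes with a mean liver FPKM of at least 10 (vertical axis, members with a star), ordered by the difference of group means, with symbols for genotype and replicate as in the key. WT replicate 1 is lower than WT replicate 2 in every gene, and both MKRN1-null libraries lie above both WT libraries in every gene shown except Mup20 and Mup18.

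The cluster as a whole, with every transcript annotated in it, took 1.02% and 3.13% of all aligned bases in the WT livers and 5.82% and 6.77% in the MKRN1-null livers, against at most 0.0026% in fat. This total includes the gene ID Entrez100048885, which matched no symbol and is annotated over several of the same Mup loci, at 2419 and 8576 FPKM in WT and 14065 and 16809 FPKM in MKRN1-null livers. FPKM values are scaled to the reads of a library, so the reads on the Mup cluster count in the total by which every gene is divided. The median difference of all genes tested in liver was −0.17 on the log2 scale, and −0.12 when the Mup cluster was left out of the totals. The log2 difference of the 6-member sum was 1.43 on those totals.

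The nearest measured genes on either side of the cluster are given next. On the side of the lower coordinates Snx30, at a distance of 52066 bases, was at 1.79 and 1.51 FPKM in WT livers against 1.20 and 0.950 in MKRN1-null livers, and Inip was at 1.53 and 1.49 against 0.905 and 1.36. On the other side Fkbp15 overlapped between the genotypes, and Slc31a1, a copper importer gene, was at 48.0 and 46.9 against 48.5 and 51.7 FPKM. None of these 4 passed the limma test, with adjusted p-values of 0.1, 0.25, 0.807 and 0.521.

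Hsdl2 and Slc31a2 were lower in MKRN1-null livers. Hsdl2 fell by 0.56 (SE 0.13, limma adjusted p = 0.044) and Slc31a2 fell by 0.47 (SE 0.11, limma adjusted p = 0.0451) on the log2 scale, where all genes had a median of −0.17. With median-of-ratios scaling neither passed (limma adjusted p = 0.183 and 0.145), nor with quantile normalization, nor without any 1 of WT replicate 1, MKRN1-null replicate 1 and MKRN1-null replicate 2, with adjusted p-values between 0.0576 and 0.203.

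The RefSeq promoter windows, 250 bases before to 50 bases after the annotated start in GRCm38.p6, were present for 14 of the 22 Mup genes and for Mup2, Mup3, Mup7 and Mup21 among the members. The 100 bases before the start of each are shown, with the letters TATATAA in capitals where present.
Mup2 at chr4:60139857-60139956, minus strand: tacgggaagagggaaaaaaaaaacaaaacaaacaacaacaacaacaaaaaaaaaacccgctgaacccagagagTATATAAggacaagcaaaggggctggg
Mup3 at chr4:62087318-62087417, minus strand: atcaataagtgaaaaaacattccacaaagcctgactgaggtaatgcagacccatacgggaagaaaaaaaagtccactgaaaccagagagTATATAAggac
Mup21 at chr4:62150842-62150941, minus strand: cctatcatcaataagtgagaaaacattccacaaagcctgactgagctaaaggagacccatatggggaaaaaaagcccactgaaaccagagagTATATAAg
Mup7 at chr4:60070476-60070575, minus strand: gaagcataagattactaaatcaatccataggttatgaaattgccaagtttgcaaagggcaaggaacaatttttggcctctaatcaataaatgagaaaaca

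The motif TATATAA, searched on both strands and chosen after the sequences had been seen, occurred in 13 of the 14 Mup windows (92.9%) and in 3.24% of all 32851 promoter windows. Counted from the annotated start, it began at −27 in Mup2, −11 in Mup3 and −8 in Mup21, and the Mup7 window did not hold it. That window ended in a stretch that in the Mup2 window lies before TATATAA. Bases past its end were not searched, so whether Mup7 has the motif there is not known. The motif TTCNNNGAA, the core to which STAT5, the transcription factor of the growth hormone pathway, binds, occurred in 0 of the 14 Mup windows and in 8.3% of all windows. These matches describe letters in a short window and say nothing of binding.

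In subcutaneous fat the members were at or near 0. Mup1, Mup7, Mup20 and Mup21 did not exceed 2.58 FPKM in any fat library and did not pass the filter of 1 FPKM in at least 2 of the 4 fat libraries, and Mup21 was listed at 0 in 3 of them. Mup2 was at 2.47 and 0.415 FPKM in WT fat and at 1.21 and 1.01 FPKM in MKRN1-null fat, and Mup3 at 1.65 and 2.12 against 1.45 and 3.12. Both genes overlapped between the genotypes.

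The comparison of MKRN1-null with WT fat was not used to pick the members. Neither of the 2 members tested there passed limma, with a log2 difference of −0.07 (SE 0.46, limma adjusted p = 0.954) for Mup2 and of 0.14 (SE 0.31, limma adjusted p = 0.853) for Mup3. In this comparison 0% of 12162 genes passed the adjusted threshold and 784 genes had an unadjusted p under 0.05. Without MKRN1-null fat replicate 2, the library rich in muscle transcripts, still neither member passed, while 3 of all genes tested did. At these levels a difference between genotypes in fat was not detectable. Mup20 was at 2.58 FPKM in that library and at 0.0433 to 0.142 in the other 3 fat libraries, and Alb was at 16.5 FPKM there against 2.77 to 8.96.

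Every member had higher values in each liver library than in each fat library of the same genotype. Most members pass the filter only through their liver libraries, where they are high, so a test between tissues could only find them higher and none is given for them. For these the log2 difference between liver and fat was 12.76 in WT and 11.96 in MKRN1-null mice for Mup20, 6.16 and 12.25 for Mup7, 6.41 and 11.11 for Mup1, and 7.67 and 8.96 for Mup21. For Mup2 in WT it was 6.07.

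Mup3 in both genotypes and Mup2 in MKRN1-null mice were above 1 FPKM in both fat libraries and passed the filter without the liver. The difference of Mup3 was 10.03 (SE 0.33, limma adjusted p = 1.79e-05) in WT and 11.32 (SE 0.34, limma adjusted p = 0.000153) in MKRN1-null mice, and that of Mup2 was 8.68 (SE 0.23, limma adjusted p = 0.000132) in MKRN1-null mice. The liver side of these tests holds the values by which the members were chosen, so no conclusion is drawn from the p-values. The value of Mup2 by itself is also uncertain, as said above. Of all genes tested, 17.9% were called higher in liver in WT and 12.9% in MKRN1-null mice. Of the genes called between WT tissues 22.3% were higher in liver, against 50.9% with median-of-ratios scaling and 42.9% with quantile normalization, and in MKRN1-null mice 24.9% against 52.9% and 49.2%.

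In WT livers the order of the members was Mup20, Mup3, and then Mup21, Mup2, Mup7 and Mup1. The means of the last 4 lay between 147 and 221 FPKM, and their SDs, between 124 and 199, were larger than the gaps between them. Mup20 and Mup3, at means of 8652 and 3182, also did not separate beyond their spread across the WT libraries, although Mup20 was higher than Mup3 in each of them. In MKRN1-null livers Mup7, Mup3 and Mup20, at means of 8515, 8111 and 8022 FPKM, did not differ beyond their SDs of 1508, 479 and 503, and Mup1, Mup2 and Mup21 followed at 2905, 873 and 551.

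The genes whose liver pattern was nearest to the 6-member sum were found by the root mean square difference of profiles in log2(FPKM + 1), centred on the WT mean, over the 4 liver libraries. They were Serpina3k, a serine protease inhibitor secreted by the liver, at 0.0539, Ttc39c at 0.216, Angptl8, a secreted regulator of lipoprotein lipase, at 0.226, Slc22a7, an organic anion transporter, at 0.23, and Scara5, a ferritin receptor, at 0.236. Serpina3k was at 1294 and 3594 FPKM in WT and at 5581 and 5643 FPKM in MKRN1-null livers. Like the 6-member sum, it was lower in WT replicate 1 than in replicate 2 and higher in both MKRN1-null livers than in either WT liver. These genes were picked for this likeness, and it carries no test.

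Genes that are not members were compared between MKRN1-null and WT livers in lists. These hold genes that act on Mup genes, share their class or protein fold, or are higher in female liver. These lists and the marker lists below were chosen with earlier results of these data known, so their counts are a description. Of all genes tested, 19.5% passed limma at an adjusted p under 0.05, 2.51% higher and 17% lower, and the share of higher genes among those called was 12.9%, which became 42.7% with median-of-ratios scaling and 36.8% with quantile normalization. These scalings moved the median of all genes from −0.17 to 0.05 and 0.03. Over 5 lists 20 of 61 genes tested passed. The count was 12 without WT replicate 1, 22 without WT replicate 2, 7 without MKRN1-null replicate 1 and 3 without MKRN1-null replicate 2, so calls of single genes in these lists rest on few libraries.

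Genes that growth hormone keeps higher in male than in female liver are the class to which Mup genes belong. Of 15 tested, 4 passed limma as higher and 0 as lower (8 and 0 at an unadjusted p under 0.05), against 2.51% and 17% of all genes. In 11 of them both MKRN1-null libraries lay above both WT libraries, against 11.8% of all genes. Because the list was chosen with earlier results of these data known, these counts are no independent support. The median log2 difference was 1.08, against −0.17 for all genes. Hsd3b5, a steroid dehydrogenase gene expressed in male liver, was at 0.0415 and 2.25 FPKM in WT and at 153 and 225 FPKM in MKRN1-null livers (log2 difference 6.66, SE 0.56, limma adjusted p = 0.0106). Serpina1e, an antitrypsin gene, was at 551 and 981 against 3585 and 4777 FPKM (2.49, SE 0.31, limma adjusted p = 0.017).

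Cyp7b1, an oxysterol hydroxylase gene, was at 15.4 and 34.0 against 84.7 and 124 FPKM (2.11, SE 0.40, limma adjusted p = 0.0316), and Susd4, a gene of a complement inhibitor, at 1.80 and 2.34 against 9.69 and 10.01 FPKM (1.83, SE 0.12, limma adjusted p = 0.00852). Others in this list behaved as Mup20 did, with MKRN1-null values inside the WT range. Cyp4a12a was at 12.4 and 146 FPKM against 45.1 and 68.5, and Elovl3, a fatty acid elongase gene, was at 13.5 and 116 against 66.6 and 27.4. Cyp7b1 did not pass without WT replicate 1. The 4 calls became 11 without WT replicate 2, 3 without MKRN1-null replicate 1 and 0 without MKRN1-null replicate 2. The summed list was 1851 and 3489 FPKM in WT and 6827 and 8903 FPKM in MKRN1-null livers.

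Genes that are higher in female liver were counted in the same way. Of 12 tested, 3 passed limma as lower and 0 as higher (5 and 0 at an unadjusted p under 0.05), against 17% of all genes called lower. Both MKRN1-null libraries lay below both WT libraries in 5 of the 12 and above in 1, against 57.5% and 11.8% of all genes, and the median log2 difference was −0.71. Cyp2b9 was at 149 and 49.2 FPKM in WT and at 11.2 and 13.4 FPKM in MKRN1-null livers, and fell by 2.71 (SE 0.52, limma adjusted p = 0.0323). Cyp2a22 fell by 2.53 (SE 0.50, limma adjusted p = 0.0347). Cyp3a44 was at 4.52 and 4.83 FPKM in WT and at 0.0114 and 0.0532 FPKM in MKRN1-null livers, lower by 2.46. All 3 are cytochrome P450 genes. Cyp3a44 and Cyp2b13 were under 1 FPKM in both MKRN1-null livers and passed the filter only through WT. Limma could thus only find them lower, and no test is given for Cyp3a44, which is among the 3 counted. Cyp2b9 and Cyp2a22 did not pass after quantile normalization, without a filter on low values, or without either MKRN1-null replicate. The number of lower genes was 2 without WT replicate 1, 5 without WT replicate 2 and 1 without either MKRN1-null replicate, and without WT replicate 1 there were also 2 higher genes.

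The WT livers differed from each other in both lists as well. All 15 tested male-biased genes were higher in WT replicate 2 than in WT replicate 1, with a median log2 difference of 1.13, and 1 of the 12 tested female-biased genes was, with a median of −1.08, against a median of −0.05 for all genes tested. WT replicate 1 was thus the library with the lowest values of every member and of the male-biased genes as summed, and the highest sum of the female-biased genes, 570 FPKM against 136 to 226 in the other livers. These are differences between 2 single libraries and carry no test.

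**Figure D5:**
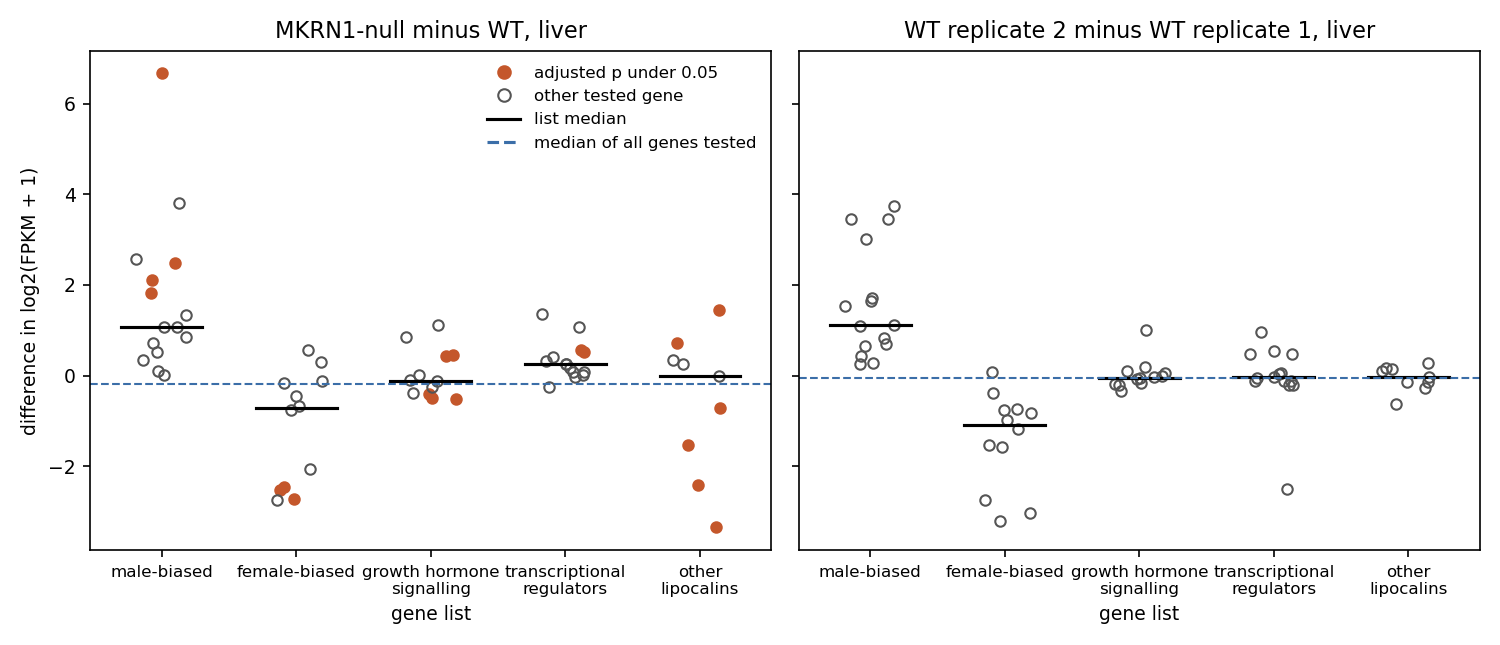
Differences in log2(FPKM + 1) of the tested genes of 5 lists in liver, MKRN1-null mean minus WT mean (left) and WT replicate 2 minus WT replicate 1 (right), with genes called by limma at an adjusted p under 0.05 filled on the left, black bars at list medians and a dashed line at the median of all genes tested. Male-biased genes have medians of 1.08 and 1.13 and female-biased genes of −0.71 and −1.08 in the respective panels, and the other lists lie near the dashed lines on the right.

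Growth hormone signalling runs from its receptor through JAK2 and STAT5 to IGF1 and the SOCS feedback inhibitors. Of 12 tested genes of this pathway, 2 passed as higher and 3 as lower, against 2.51% and 17% of all genes, with a median of −0.11. Igf1, the growth factor that the liver secretes under growth hormone, rose by a log2 difference of 0.46 (SE 0.11, limma adjusted p = 0.0488), and Socs3, a feedback inhibitor of cytokine signalling, by 0.43 (SE 0.09, limma adjusted p = 0.0369). Stat5a fell by 0.52 (SE 0.12, limma adjusted p = 0.0494) and Igfbp3, an IGF carrier protein gene, fell by 0.49 (SE 0.11, limma adjusted p = 0.0416). None of these 4 passed without any 1 of the 4 liver libraries, and with either median-of-ratios scaling or quantile normalization limma called 0 genes of this list lower. The receptor gene Ghr was at 172 and 184 FPKM in WT livers and at 154 and 208 in the other genotype, with overlap. Stat5b was at 13.57 and 13.03 against 11.8 and 10.3 (limma adjusted p = 0.135). Ghr and Stat5b were singled out for their roles after their values were seen.

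Among 14 tested regulators linked to Mup genes or to sex bias in liver, 2 passed limma as higher and 0 as lower (5 and 0 at an unadjusted p under 0.05). Of all genes 2.51% passed as higher and 17% as lower. The median of these regulators was 0.26. Hnf4a, the nuclear receptor that sets hepatocyte identity, rose by 0.53 (SE 0.11, limma adjusted p = 0.0355), and Thrb, a thyroid hormone receptor gene, rose by 0.56 (SE 0.13, limma adjusted p = 0.0445). Neither passed without any 1 of the 4 liver libraries. Bcl6, a repressor of STAT5 target genes in male liver, was at 4.47 and 6.67 FPKM in WT and at 24.8 and 9.73 FPKM in MKRN1-null livers (limma adjusted p = 0.0923), and was singled out after its values were seen.

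Other lipocalin genes encode proteins that share the fold of the Mup proteins. Of 9 tested, 2 passed as higher and 4 as lower, against 2.51% and 17% of all genes, with a median of −0.01. Lcn2, an inflammatory lipocalin gene, was at 62.3 and 51.2 FPKM in WT livers against 7.08 and 2.98 and fell by 3.34 (SE 0.35, limma adjusted p = 0.0137). The acute phase genes Orm2 and Orm3 fell by 2.41 (SE 0.09, limma adjusted p = 0.00313) and 1.52 (SE 0.25, limma adjusted p = 0.0248). Obp2a, an odorant binding protein gene, was higher by 1.46, at 0.23 and 0.491 FPKM in WT against 2.45 and 3.02 in MKRN1-null livers. It passed the filter only through the MKRN1-null livers, so limma could only find it higher. Rbp4, the carrier of retinol, was at 3083 and 3425 against 4112 and 3668 FPKM (limma adjusted p = 0.196). The counts were 1 higher and 2 lower without WT replicate 1, and 0 higher and 2 lower without either MKRN1-null replicate. Lcn2 and Orm2 passed in every alternative tried. Obp2a was under the filter at 5 FPKM and without either MKRN1-null replicate, and no test is given for it. Orm3 did not pass without WT replicate 1 or either MKRN1-null replicate.

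Markers of other cells moved with genotype in the same libraries. Of 8 marker genes of macrophages and other non-parenchymal cells, 5 passed as lower in MKRN1-null livers, against 17% of all genes tested. Among them Epcam, Krt19 and Ptprc were under 1 FPKM in both MKRN1-null livers and passed the filter only through WT. Limma could thus only find them lower, and their groups could not overlap. In 7 of the 8 both MKRN1-null libraries lay below both WT libraries, against 57.5% of all genes tested. Clec4f, a gene of Kupffer cells, was the exception, at 42.1 and 11.4 FPKM in WT livers and at 24.8 and 29.3 in MKRN1-null livers. The calls were 2 lower and 1 higher (Clec4f) without WT replicate 1, 1 lower without MKRN1-null replicate 1 and 0 lower or higher by limma without MKRN1-null replicate 2. Their summed level was 99.1 and 48.4 FPKM in WT and 40.0 and 45.4 FPKM in MKRN1-null livers. Col1a1, a fibrillar collagen gene, fell by 2.29 (SE 0.22, limma adjusted p = 0.0122). Cd68, a macrophage gene, fell by 1.21 (SE 0.22, limma adjusted p = 0.0282). Epcam and Krt19, genes of bile duct epithelium, were lower by 1.58 and 1.10, and no test is given for them. In bulk tissue fewer cells of a type and less RNA per cell cannot be told apart.

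Hepatocyte markers were abundant in all livers. The 11 hepatocyte secreted protein genes summed to 97072 and 89047 FPKM in WT and to 101557 and 102927 FPKM in MKRN1-null livers. Of the 11, limma called 0 lower and 1 higher, against 17% and 2.51% of all genes. The latter was Serpina1c, with a log2 difference of 1.07 (SE 0.15, limma adjusted p = 0.0196). Both MKRN1-null libraries lay above both WT libraries in 7 and below in 3, against 11.8% and 57.5% of all genes. With median-of-ratios scaling 4 were called higher. Alb and Apoa2 did not pass (limma adjusted p = 0.498 and 0.586). Of 5 tested adipocyte markers, Pparg and Fabp4 fell by 1.63 (SE 0.17, limma adjusted p = 0.0135) and 1.67 (SE 0.10, limma adjusted p = 0.0078). Of all genes tested, 17% were called lower. Cfd, Lipe and Adipor2 did not pass, with log2 differences of 0.37, 0.04 and −0.11 (limma adjusted p = 0.735, 0.849 and 0.357). Adipoq, Plin1, Lep and Retn were at 0.23 FPKM or less in every liver and were not tested. The whole list summed to 247 and 267 against 211 and 194 FPKM. Skeletal muscle markers summed to 9.52 to 12.7 FPKM in every liver, and 0 of 6 passed limma (1 at an unadjusted p under 0.05). The part of these cell markers in the Mup values was not tested.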

How the data were processed

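Liver and subcutaneous fat libraries (2 per genotype and tissue) had been aligned by the authors to mm10 with HISAT2 and SAMtools, and the deposited values, FPKM, TPM and coverage per transcript as other values in the attribute text, were estimated by StringTie 1.3.3b on RefSeq transcripts (per the file headers and per the labels). The paper's methods name other tools. Counts were not used here. The FPKM values of a gene's transcripts were added up, and of 24532 gene IDs 24462 were matched to a symbol by ID and 9 by accession. Tests used limma 3.58.1 in R 4.3.3 on log2(FPKM + 1), with variance trend, over genes at 1 FPKM or more in at least 2 of the 4 libraries, adjusted by Benjamini-Hochberg, and were tested on simulated data. With 2 against 2 an exact permutation test could not go below 0.333. Alternatives were a pseudocount of 0.1, TPM, median-of-ratios scaling, quantile normalization, no filter or 5 FPKM, no trend, a replicate block and leaving out each library, and, added after seeing the data, totals without the cluster and 2 other sums. The members and lists were chosen with earlier results of these data known. Named are all members, Mup genes above 1 FPKM, up to 4 called genes with the largest change and no overlap per list (the 2 most abundant where under 2 were called), the 3 nearest measured genes each side, and the 5 most like genes. Sequences came from GENCODE vM21 and RefSeq.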

Additional observations from a re-analysis of the deposited data

How the results depend on the processing

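The 6-member sum, with a log2 difference of 1.37 between MKRN1-null and WT livers, was 1.31 to 1.64 with TPM, median-of-ratios scaling, a pseudocount of 0.1 or totals without the cluster, and 1.0 after quantile normalization. Leaving out 1 library gave 0.67 to 2.08. The sum of every Mup symbol gave 1.80 and every transcript of the cluster 1.78, whereas the sum without Mup20 gave 2.53 and the sum of Mup3, Mup20 and Mup21 gave 0.63. Among single members the difference of Mup20 changed sign, to −0.33 after quantile normalization, and ran from −0.68 to 0.85 when 1 library was left out. The calls in fat stayed at 0 members in every setting, among 0 to 6 members tested. Leaving out 1 library left 2 to 6 members that passed the filter between WT liver and fat and 4 to 6 in MKRN1-null mice. Calls in these fits are not counted, because most members pass the filter only through liver and could only be called higher. For the liver lists the count of 20 went to 12 without a filter, and to 3 to 22 when 1 library was left out. Other genes with a changed sign were Ddx3y (0.196 with median-of-ratios, 0.151 with quantile normalization, 0.0124 on totals without the cluster), Apoa2 (0.156 with median-of-ratios), Inip (0.0425 with quantile normalization) and Fkbp15 (−0.0273 with TPM), and, over the libraries left out, Fkbp15 (−0.0146 to 0.0793), Acta1 (−0.0608 to 0.269) and Tnnt3 (−0.0285 to 0.161), all of which missed the threshold. The cause of these shifts was not tested.

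The titles give libraries of different groups the same number, and the liver and fat libraries of 1 genotype and number may come from 1 animal, which the labels do not say. Their deviations from the group means correlated across genes at 0.00669 between the liver groups, 0.113 between the fat groups, 0.0597 between the WT tissues and 0.0652 between the MKRN1-null tissues. With the replicate block the liver lists gave 19 calls and the fat comparison 0 members, while over all genes in fat the calls went from 0 to 422.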
